A study of Homo sapiens with 8 samples.

Results

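The caveolin and cavin mRNAs are those of CAVIN1, CAVIN2, CAVIN3, CAV1 and CAV2, the coat and membrane proteins of caveolae, and they were followed through a LARP6 eCLIP experiment in human hepatic stellate cells. A region was taken as belonging to a gene when its midpoint lay within the RefSeq bounds of that gene on GRCh38, on the strand of the gene. This gave 188 of the 176826 tested clusters in the 4 immunoprecipitated libraries and 13 of the 1635 peaks in the lists of reproducible peaks, which is 201 of 178461 regions. The set was selected on the peak number of CAVIN1, which is among the genes with the most peaks, with results of these data known. Peak numbers and folds over input of the 5 genes are therefore a description and were not tested against other genes.

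Stellate cells, the collagen makers of the liver, were activated with the cytokine TGFβ1 (5 ng/ml) or served as controls, for which the labels give both untreated and DMSO. Cells of both groups carry a wild-type genotype label, grew in DMEM with 10% serum, were crosslinked with ultraviolet light at 254 nm and 400 mJ per square centimetre, and were immunoprecipitated with an antibody to LARP6. Each group had 2 immunoprecipitated and 2 size-matched input libraries, and the inputs enter through the authors' log2 fold over input. Whether replicates were separate cultures is not stated in the labels, so p-values measure only the spread between these libraries. In what follows a cluster is any region that the authors compared with input, and it is called enriched at an authors' log2 fold of at least 3 and an authors' −log10 p of at least 3.

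Caveolae are small flask-shaped pits of the plasma membrane. Caveolins are membrane proteins that oligomerise in the inner leaflet, and cavins are cytosolic proteins that coat the pit from the inside. CAV1 and CAVIN1 are each required for caveolae in most cell types outside muscle, and loss of either in humans gives a form of lipodystrophy. Caveolae flatten under membrane stretch, and fibroblast-like cells such as stellate cells are among the cells that carry them. LARP6 is an RNA-binding protein known for a stem-loop around the start codon of fibrillar collagen mRNAs.

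The libraries differed in ways that touch every value below. TGFβ1 replicates 1 and 2 held 31137 and 54536 tested clusters, and control replicates 1 and 2 held 51273 and 39880. The median log2 fold of all clusters was 0.94 and 0.82 in the TGFβ1 libraries, against 0.38 and 0.85 in the control libraries. Control replicate 1 stood lowest, so folds are also given after subtraction of the library median where this matters. In both control libraries this median was also the commonest single fold, and in the TGFβ1 libraries it was not. The subtraction thus does not remove quite the same quantity in each group. Read depth is unknown because the lists hold no counts. Of 10 stellate cell markers, 9 had tested clusters in each library and DES had none. In contrast, 5 of 5 hepatocyte markers, 4 of 5 endothelial, 4 of 5 adipocyte and 4 of 5 macrophage markers had none in any library. The adipocyte marker PLIN1 had 2 clusters in each library. The macrophage marker CD68 had 2 and 4 in TGFβ1 libraries and 2 and 4 in control libraries. The endothelial marker KDR had 2, in TGFβ1 replicate 2 alone. Of 4 cholangiocyte markers, KRT19 and EPCAM had none in any library. SOX9 had 2 and 1 clusters in TGFβ1 libraries and 1 and 1 in control libraries. KRT7 alone of this list differed between the groups, with 13 and 17 clusters in TGFβ1 libraries against 1 and 2 in control libraries. Its part in the results on caveolar genes was not tested.

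CAVIN1 carried enriched LARP6 peaks in every library, and the other 4 genes carried none in any library. The peaks of CAVIN1, which encodes the cavin without which the caveolar coat does not form, lay at 2 sites near the 3′ end of the gene. CAV1, CAV2 and CAVIN3 had tested clusters in every library with no enriched one, and CAVIN2 had no tested cluster at all. Of 4178 protein-coding genes with tested clusters in all 4 libraries, 3.83% had an enriched peak in each of them. In the authors' TGFβ1 list 7.09% of 5220 protein-coding genes tested in both libraries had a reproducible peak, and in the control list 3.87% of 5350 did. CAVIN1 stood in both lists by the choice of the genes, so nothing is read from its presence there.

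CAVIN1 (gene 284119) spans 42402449 to 42423256 on the minus strand of chromosome 17, which is 20808 nt. Its tested clusters numbered 23 and 35 in TGFβ1 replicates 1 and 2, against 21 and 23 in control replicates 1 and 2. Enriched clusters numbered 5 and 9 in the TGFβ1 libraries, against 2 and 5 in the control libraries. The enriched share of CAVIN1 clusters was 21.7% (95% exact binomial interval 7.46 to 43.7) and 25.7% (12.5 to 43.3) in the TGFβ1 libraries. In the control libraries it was 9.52% (1.17 to 30.4) and 21.7% (7.46 to 43.7). Control replicate 1 was the low library, and the intervals overlapped in all 4. They cover counting error only and take clusters as independent, although enriched clusters were often neighbouring pieces of the same site. Nothing is therefore read from their overlap. Over all genes 2.69% and 3.64% of TGFβ1 clusters and 1.21% and 2.09% of control clusters were enriched. Within the bounds of each of the 5 genes, no region lay on the strand opposite to that of the gene, which for CAVIN1 and CAVIN3 was taken from the clusters.

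The CAVIN1 clusters fell into 2 groups at the ends of the gene. Across the 4 libraries, 79 of 102 clusters lay within 2341 nt of the annotated 3′ end, 21 lay within 600 nt of the 5′ end, and 2 lay between. The 21 enriched clusters were all in the 3′ group. Clusters at the 5′ end had log2 folds of −0.94 to 1.76, and 7 of 21 were above the median of their library. In the 3′ group 69 of 79 were above it. Exons and untranslated regions were not used here, so positions are distances from the ends of the gene. By midpoint 1 cluster at the 5′ end, in TGFβ1 replicate 2, lies in the bounds of the lncRNA LOC102725238, which overlaps the start of CAVIN1. The first cluster of each other library reaches into these bounds as well. The strand of the lncRNA was not considered in this.

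**Figure D1:**
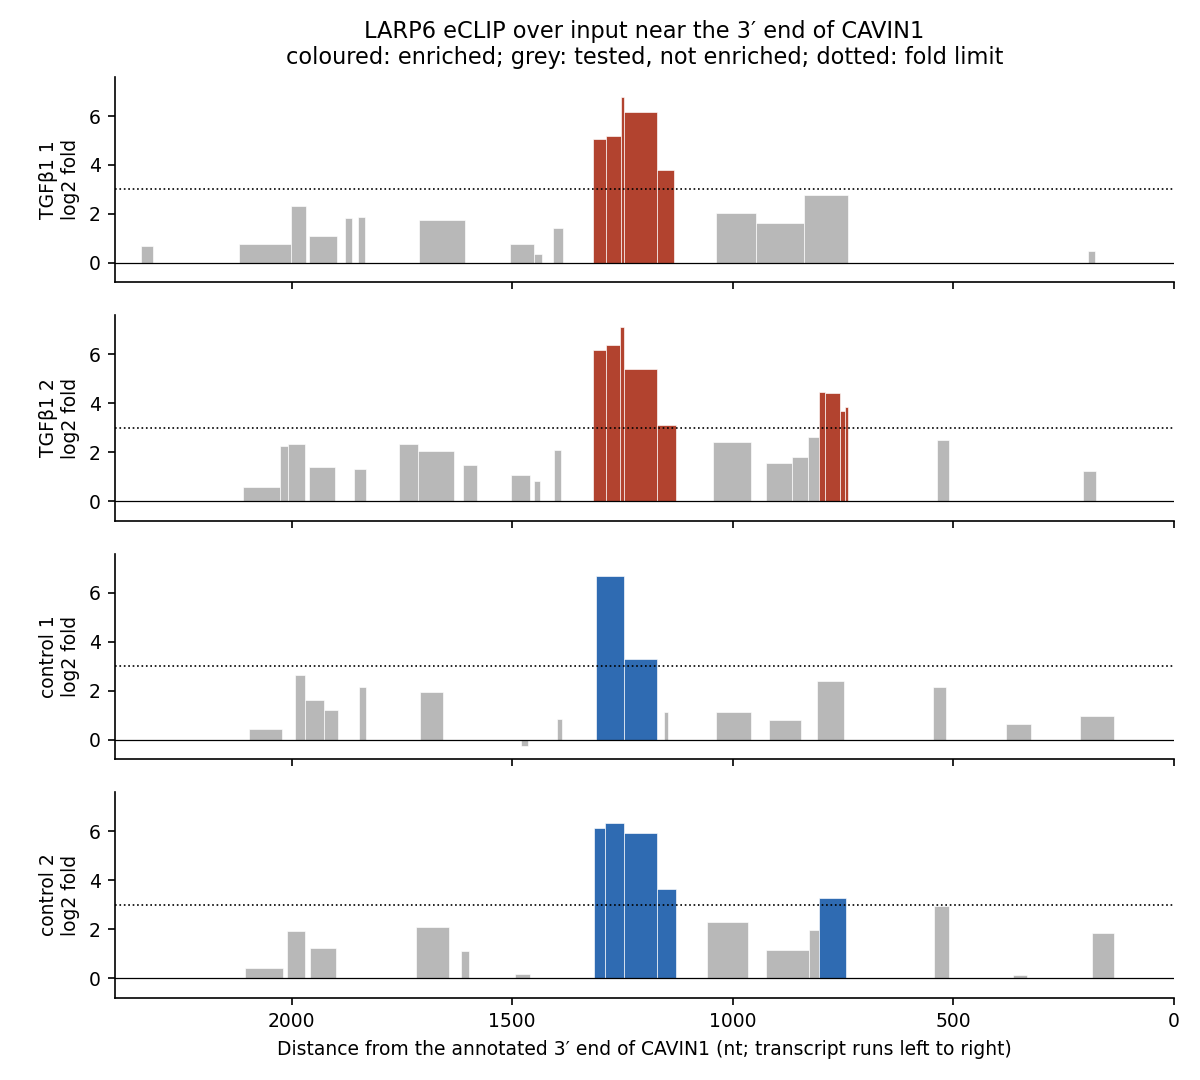
Log2 fold over input (vertical axis) of each tested cluster against its distance from the annotated 3′ end of CAVIN1 in nt (horizontal axis), 1 panel per library, with TGFβ1 replicates above control replicates. Coloured blocks are enriched and grey blocks are not, and the dotted line is the fold limit of 3. Enriched clusters between 1129 and 1316 nt are present in all 4 libraries, in control replicate 1 from 1173 to 1310 nt only. Those between 739 and 803 nt are coloured in replicate 2 of each condition.

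The stronger of the 2 CAVIN1 sites, called distal here because it lies further from the 3′ end, spanned 42403578 to 42403765 on chromosome 17, which is 188 nt at 1129 to 1316 nt from the 3′ end. Its highest cluster had a log2 fold of 6.79 and 7.11 in TGFβ1 replicates 1 and 2, against 6.69 and 6.33 in control replicates 1 and 2. All 4 libraries were far past the limit, and the TGFβ1 values were the higher ones. The means were 6.95 ± 0.22 for TGFβ1 and 6.51 ± 0.25 for control (SD, n = 2 each), a difference of 0.44 (exact permutation test, two-sided, p = 0.333, the smallest that 2 against 2 allows). After subtraction of the library medians the values were 5.85 and 6.28 for TGFβ1 and 6.31 and 5.49 for control, and the groups overlapped. The gene with the median change among those 4178 had a highest fold 0.62 greater in TGFβ1 libraries than in control libraries, which is more than the 0.44 of CAVIN1.

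Averaged over the covered bases of the distal site, the log2 fold was 5.32 and 5.24 in TGFβ1 libraries and 4.60 and 5.54 in control libraries. The control libraries lay on either side of the TGFβ1 libraries. The means were 5.28 ± 0.06 and 5.07 ± 0.66 (SD, n = 2 each; exact permutation test, two-sided, p = 1.0). Their difference of 0.21 turned to −0.06 after subtraction of the library medians. The highest −log10 p of the site was 101 and 400 in TGFβ1 libraries, where 400 is the cap of the deposited values, and 35.2 and 51.1 in control libraries.

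In each library the fold of the distal site was lowest at its 3′ edge. In TGFβ1 replicate 1 the 5 abutting clusters, read from the 5′ side to the 3′ side, had log2 folds of 5.04, 5.18, 6.79, 6.15 and 3.79. In TGFβ1 replicate 2 they had 6.19, 6.41, 7.11, 5.39 and 3.13. The 2 top clusters are 8 and 7 nt long and share bases 1248 to 1253 from the 3′ end. In control replicate 2 the site was cut into 4 clusters, of 6.16, 6.33, 5.93 and 3.65. Control replicate 1 had a cluster of 6.69, one of 3.32 and, set apart on the 3′ side, one of 1.12 that was not enriched. Peak numbers at this site thus depend on where a library's clusters were cut.

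The weaker CAVIN1 site, called proximal, spanned 42403188 to 42403252, which is 65 nt at 739 to 803 nt from the 3′ end. Its highest cluster had a log2 fold of 2.77 and 4.49 in TGFβ1 replicates 1 and 2, against 2.41 and 3.27 in control replicates 1 and 2. Replicate 2 was enriched in each condition and replicate 1 in neither. The −log10 p passed its limit in all 4 libraries, at 24.2 and 67.1 in TGFβ1 libraries and 5.49 and 11.8 in control libraries, so the fold alone kept replicate 1 out. The means were 3.63 ± 1.21 for TGFβ1 and 2.84 ± 0.61 for control (SD, n = 2 each), and their difference of 0.79 was less than the spread of the TGFβ1 libraries (exact permutation test, two-sided, p = 0.667). Without TGFβ1 replicate 2 the 1 remaining value of 2.77 lay between the control values and below their mean of 2.84.

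**Figure D2:**
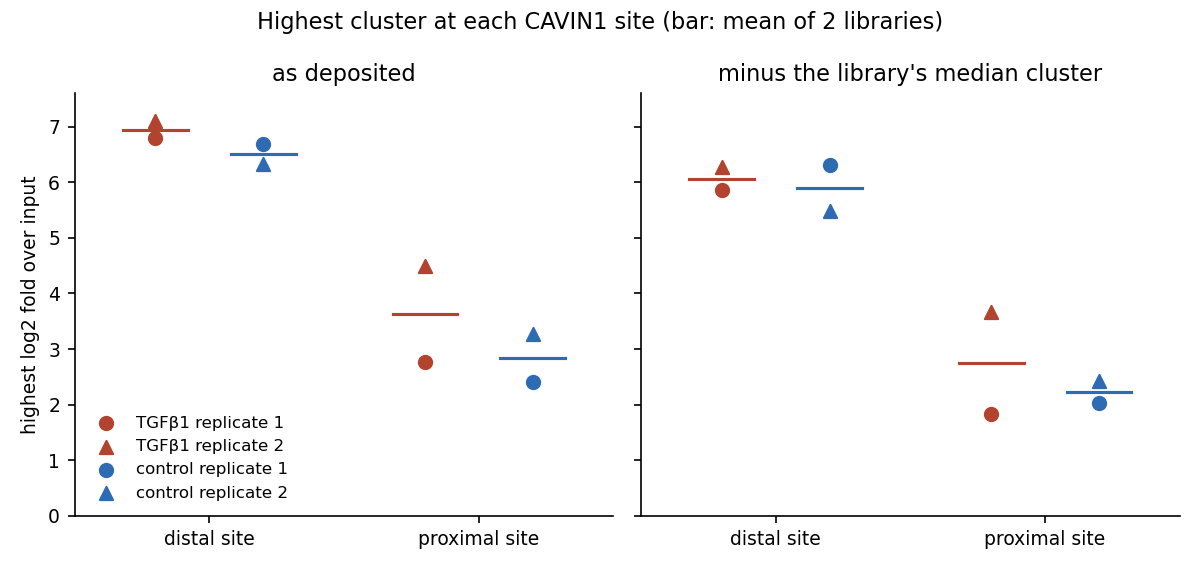
Highest log2 fold over input (vertical axis) at the distal and proximal CAVIN1 sites, for TGFβ1 libraries on the left of each pair and control libraries on the right, with replicate 1 as circles, replicate 2 as triangles and the mean of 2 libraries as a bar. The left panel shows the deposited values, in which the distal site has 6.79 and 7.11 against 6.69 and 6.33, and the right panel shows them minus the median fold of the library, in which the groups overlap at the distal site.

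In the authors' lists of reproducible peaks CAVIN1 had 9 peaks for TGFβ1 and 4 for control, yet these are the same 2 sites. Merged where at most 20 nt apart, both lists gave 2 sites. The distal site held 5 TGFβ1 peaks and 3 control peaks, and the proximal site held 4 and 1. All 9 TGFβ1 peaks overlapped a control peak and all 4 control peaks overlapped a TGFβ1 peak by at least 1 nt. The TGFβ1 peaks covered 253 nt and the control peaks 204 nt. The whole control stretch lay within the TGFβ1 stretch, which it fills to 80.6%. What the TGFβ1 list added was mainly the 3′ shoulder of the distal site, from 42403578 to 42403620, with an authors' log2 fold of 3.46 in that list. Clusters over this shoulder had 3.79 and 3.13 in TGFβ1 libraries, against 1.12 and 3.65 in control libraries, so control replicate 2 was enriched there as well.

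The highest listed fold of CAVIN1 was 6.96 in the TGFβ1 list and 6.51 in the control list. By peak number 7 of 393 genes had more peaks than CAVIN1 in the TGFβ1 list, 3 others had as many, and the median gene had 2. In the control list 19 of 230 genes had more, 14 others had as many, and the median gene had 1. By highest fold 20 genes stood above CAVIN1 in the TGFβ1 list and 16 in the control list. The listed fold at the proximal site of the control list was 3.07, just inside the limit. Among CAVIN1 clusters outside both sites, the nearest to the limit from below had 2.93, in control replicate 2 at 510 to 544 nt from the 3′ end. The cluster of control replicate 2 at the 3′ edge of the distal site was enriched, at 3.65, and is not in the control list.

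Other places near the 3′ end of CAVIN1 came up repeatedly below the fold limit. A cluster between 1967 and 2011 nt from the 3′ end had log2 folds of 2.32 and 2.36 in TGFβ1 libraries and 2.63 and 1.92 in control libraries, each with a −log10 p above 3. The cluster at 510 to 545 nt had 2.51 in TGFβ1 replicate 2 and 2.15 and 2.93 in control replicates 1 and 2, and TGFβ1 replicate 1 had no tested cluster there. Over the 881 bases of CAVIN1 that were covered in all 4 libraries, the mean log2 fold was 1.97 and 2.13 for TGFβ1 against 1.54 and 1.99 for control, and the groups overlapped. At 31.6% of these bases both TGFβ1 libraries were above both control libraries and at 0.227% both were below. Over the 369638 bases of all genes and regions covered in all 4 libraries these shares were 32.0% and 10.8%. After subtraction of the library medians they were 10.1% and 18.8% in CAVIN1, so the direction along the mRNA turned with the scaling, and 21.0% and 17.9% over all such bases.

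The position near the 3′ end was common among genes with reproducible peaks. The highest listed peak of CAVIN1 lay at 6.0% of the length of the gene from the 3′ end in the TGFβ1 list and at 6.09% in the control list. Of the protein-coding genes in these lists, 155 of 370 (41.9%) and 92 of 207 (44.4%) had their highest peak within 10% of the 3′ end.

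CAV1 (gene 857), the main structural protein of caveolae, spans 116525009 to 116561185 on the plus strand of chromosome 7. It had 8 and 17 tested clusters in TGFβ1 replicates 1 and 2, against 17 and 17 in control replicates 1 and 2, and none was enriched. The highest log2 fold was 2.43 and 2.53 in TGFβ1 libraries, against 1.79 and 2.07 in control libraries, with −log10 p of 0.825 and 2.00 against 0.532 and 0.565. The TGFβ1 values lay above the control values by 0.55 on average (2.48 ± 0.07 and 1.93 ± 0.19, SD, n = 2 each; exact permutation test, two-sided, p = 0.333, the smallest possible). None reached either limit for enrichment. The gene with the median change, among protein-coding genes tested in every library, rose by 0.62, which is more than the 0.55 of CAV1. After subtraction of the library medians CAV1 had 1.49 and 1.71 in TGFβ1 libraries, against 1.42 and 1.22 in control libraries, a difference of 0.28. With 0 of 17 clusters enriched, the exact interval reaches up to 19.5%, and with 0 of 8 up to 36.9%, if clusters are taken as independent.

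Pooled over the libraries, the clusters of CAV1 also gathered at the ends of the gene. Of 59, 18 lay in the first 2000 nt, 24 in the last 2500 nt and 17 between. Those between numbered 0 and 3 in TGFβ1 libraries, against 6 and 8 in control libraries. In control replicate 2 these 8 were more than the 4 and 5 at the 5′ and 3′ ends. The highest TGFβ1 cluster lay at the same place in both libraries, at 737 to 796 nt from the 5′ end (116525746 to 116525805 in replicate 2). Clusters overlapping it had −0.62 and 0.85 in control replicates 1 and 2, below both TGFβ1 values. This cluster was picked after its values were seen, and its −log10 p was below 3 in each library.

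**Figure D3:**
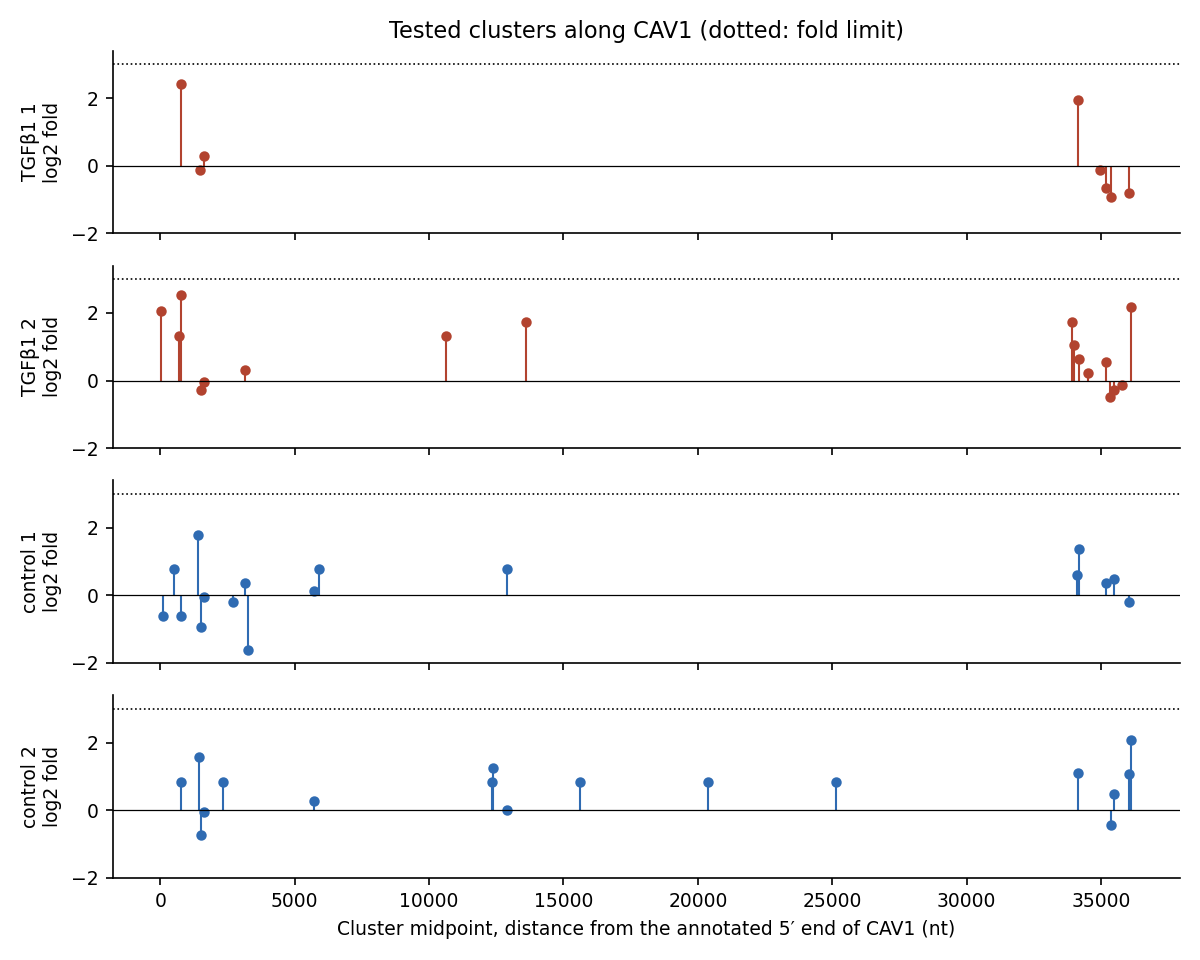
Log2 fold over input (vertical axis) of each tested CAV1 cluster, drawn at its midpoint as the distance in nt from the annotated 5′ end (horizontal axis), 1 panel per library, with TGFβ1 replicates above control replicates. No cluster reaches the dotted fold limit of 3, and the highest TGFβ1 clusters, at 2.43 and 2.53, lie near the 5′ end.

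CAV2 (gene 858), which forms hetero-oligomers with caveolin-1 and depends on it to leave the Golgi, spans 116499738 to 116508541 on the same strand. It had 4 and 4 tested clusters in TGFβ1 libraries, against 3 and 3 in control libraries. The highest log2 fold was 1.79 and 1.14 in TGFβ1 libraries, against 0.38 and 1.85 in control libraries. The control libraries lay on either side of the TGFβ1 values (1.46 ± 0.46 and 1.11 ± 1.04, SD, n = 2 each; exact permutation test, two-sided, p = 1.0). No base of CAV2 was covered in all 4 libraries.

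The start codons of CAV1 and CAV2 lie close to the annotated 5′ ends, 54 and 44 nt from them, and clusters were tested over both. They are shown because the start codon is where the collagen stem-loop known to bind LARP6 sits. Each line gives 30 bases of RefSeq sequence (GRCh38.p14, plus strand, chr7:116525039-116525068 for CAV1 and chr7:116499758-116499787 for CAV2), with the start codon in capitals.
CAV1: gttttcatccagccacgggccagcATGtct
CAV2: cagcggccgcgcaccaaggctgcgATGggg

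G and C make up 17 of the 30 bases in CAV1 (56.7%) and 23 in CAV2 (76.7%). The CAV1 start codon was covered by a cluster in TGFβ1 replicate 2 alone (116525023 to 116525071), with a log2 fold of 2.05 and a −log10 p of 0.635. The CAV2 start codon was covered in TGFβ1 replicate 2 (116499687 to 116499830), at 1.14 and 0.855, and in control replicate 1 (116499737 to 116499785), at 0.38 and 0.0. None of the 3 was enriched. Clusters at the 5′ end of CAVIN1 were not enriched either, as given above.

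CAVIN3 (gene 112464), a cavin that recruits signalling proteins to caveolae, spans 6318946 to 6320501 on the minus strand of chromosome 11. It had 3 and 3 tested clusters in TGFβ1 libraries and 3 and 4 in control libraries. The highest log2 fold was 1.20 and 1.72 in TGFβ1 libraries, against 0.38 and 0.85 in control libraries, and the groups did not overlap (1.46 ± 0.37 and 0.61 ± 0.33, SD, n = 2 each; exact permutation test, two-sided, p = 0.333, the smallest possible). In TGFβ1 replicate 1 and both control libraries this highest fold was also the commonest fold of all clusters of the library, and both control values were 0.0 after subtraction of the library medians. The highest −log10 p among these clusters was 2.63, in TGFβ1 replicate 2. Of the 13 CAVIN3 clusters, 11 lie in the bounds of the lncRNA LOC101927825 too. The strand of CAVIN3 was taken from its clusters outside these bounds. This overlap was counted by bounds, without the strand of the lncRNA. By position alone CAVIN3 and the lncRNA cannot be told apart for the 11, and which of them the clusters came from was not tested. CAVIN2 (gene 8436), a cavin that shapes membrane curvature, spans 191834310 to 191847088 on the minus strand of chromosome 2 and had 0 tested clusters in the 4 libraries. The lists do not tell whether its mRNA was absent or too sparse to be clustered.

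**Figure D4:**
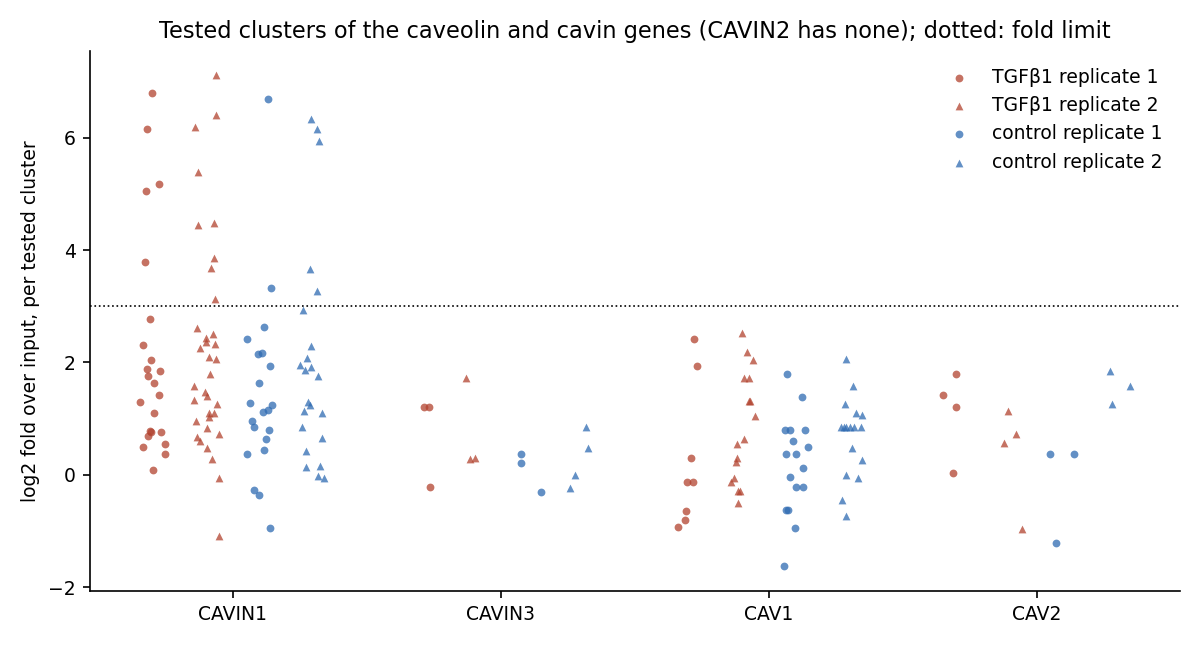
Log2 fold over input (vertical axis) of every tested cluster of CAVIN1, CAVIN3, CAV1 and CAV2 (horizontal axis), with the 2 TGFβ1 libraries left of the 2 control libraries within a gene and a point per cluster. CAVIN1 is the gene with points above the dotted fold limit of 3, and the highest point of CAV1 is at 2.53.

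Compared side by side, 3 of the 4 genes with clusters in every library had a higher highest fold in both TGFβ1 libraries than in both control libraries, namely CAVIN1, CAVIN3 and CAV1. Over the 4178 protein-coding genes this order was found in 42.7% and the opposite order in 5.41%. After subtraction of the library medians it was found in 2 of the 4 genes, CAVIN3 and CAV1, against 29.8% of all genes, with 9.26% in the opposite order. In CAVIN3 this rests on control values at the commonest fold of their library. The order in these genes was thus a common one in these libraries, and no exact test of 2 against 2 can pass a threshold of 0.05. The number of enriched peaks, all in CAVIN1, averaged 7.0 ± 2.83 in TGFβ1 libraries and 3.5 ± 2.12 in control libraries (SD, n = 2 each; exact permutation test, two-sided, p = 0.667). Enriched clusters of the whole library were also more numerous with TGFβ1, at 837 and 1985 against 620 and 835 in control libraries. The genes were chosen on the peak number of CAVIN1, so nothing particular to CAVIN1 is read from this difference. The enriched share of CAVIN1 clusters averaged 23.7% ± 2.81 for TGFβ1 and 15.6% ± 8.64 for control, a difference of 8.10 percentage points that was less than the spread of the control libraries (n = 2 each; exact permutation test, two-sided, p = 0.667). Without control replicate 1 this difference was 1.99 percentage points, and without TGFβ1 replicate 2 the difference in peak number was 1.5.

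**Figure D5:**
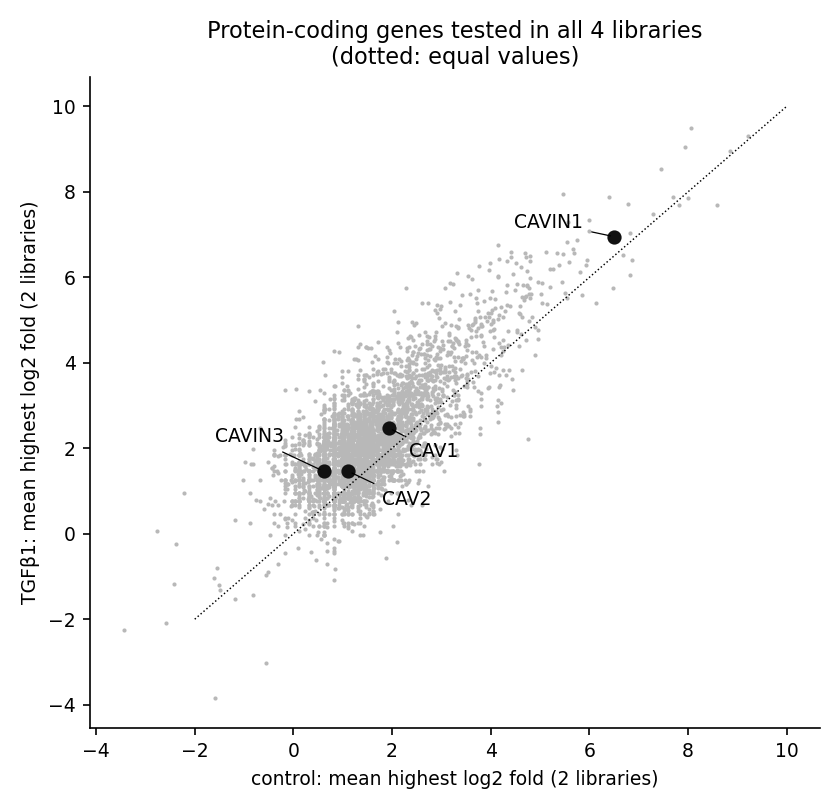
Mean of the highest log2 fold over input per gene in the 2 TGFβ1 libraries (vertical axis) against the 2 control libraries (horizontal axis) for 4178 protein-coding genes in grey, with CAVIN1, CAVIN3, CAV1 and CAV2 in black and equal values along the dotted line. CAVIN1 lies at 6.95 and 6.51, near the upper end of the cloud, and the other 3 lie within its dense part.

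Proteins that work with caveolins and cavins were looked up from a fixed list of 18 genes, which holds the EHD ATPases and PACSINs of the caveolar neck, dynamins, flotillins and the muscle members CAV3 and CAVIN4. Of these, 10 had tested clusters in both TGFβ1 libraries and 7 in both control libraries, and 0 had a reproducible peak in either list. Over all protein-coding genes the shares were 7.09% and 3.87%, and with so few genes 0 cannot be told from them. EHD2, the ATPase that holds caveolae at the membrane, had 21 and 26 clusters in TGFβ1 libraries and 26 and 21 in control libraries, with highest log2 folds of 2.43 and 2.16 against 2.25 and 2.26. Its cluster numbers were near those of CAVIN1, and 0 of them were enriched. Over all genes 2.69% and 3.64% of TGFβ1 clusters and 1.21% and 2.09% of control clusters were enriched. At such shares 0 is ordinary for that many clusters, so nothing is read from it. ROR1, a receptor that supports caveola formation, had 25 and 41 clusters in TGFβ1 libraries, against 147 and 113 in control libraries, and 0 were enriched.

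The clathrin coat and its adaptors, the other main route of coated membrane uptake, served as a second list of 25 genes. Of these, 1 of 16 tested in both TGFβ1 libraries (6.25%) and 1 of 18 tested in both control libraries (5.56%) had a reproducible peak, close to the 7.09% and 3.87% of all protein-coding genes. The gene was CLTA, a clathrin light chain, in both lists. Its highest log2 fold was 4.08 and 3.60 in TGFβ1 libraries and 4.17 and 5.12 in control libraries, so that the control libraries were the higher ones. This order was found in 5.41% of protein-coding genes tested in every library. CLTA was named for its reproducible peak, and nothing is read from its order.

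The 5 protein-coding genes most like CAVIN1 in the number of enriched peaks over the 4 libraries were RRBP1, LBH, ABL1, FBN1 and COL6A2, by Euclidean distance over log2 of 1 plus that number. RRBP1, a ribosome-binding protein of the endoplasmic reticulum, was the nearest, at a distance of 0.376, with 6 and 8 enriched peaks in TGFβ1 libraries and 2 and 4 in control libraries. Its highest log2 folds were 6.25 and 4.54 for TGFβ1 and 3.27 and 4.17 for control, so in control libraries it stood well below CAVIN1. COL6A2, a chain of type VI collagen, was the last of the 5 at 0.763, with 3 and 10 against 3 and 6. The mean difference from CAVIN1 in highest fold was 1.23 to 2.41 among the 5. LBH and ABL1 stood above CAVIN1 in TGFβ1 replicate 2, at 7.37 and 7.45 against 7.11, and in the other 3 libraries none of the 5 did.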

How the data were processed

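The submitters' processing notes name cutadapt, STAR, UMI-tools and GRCh38 without versions. For the peak calling, the normalisation to input and the joining of replicates, details are not given in the sources used here. Columns were identified by range, as no list has a header. The log2 values are folds of immunoprecipitate over size-matched input, computed by the authors before they were deposited. The −log10 p-values, also made by the authors and capped at 400, belong to the same comparison.

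Regions were assigned by midpoint and strand to RefSeq genes (GRCh38.p14). Strands came from the RefSeq promoter table or, for CAVIN1 and CAVIN3, from the clusters. For counts over all genes, small RNA genes came first, then protein-coding, then others. Library values were compared by exact permutation. Code was tested on simulated data. The genes, lists and limits were chosen with earlier results of these data known. Named were the 5 genes, list genes with a reproducible peak and the 5 nearest to CAVIN1. EHD2, ROR1, PLIN1, CD68, KDR and the 4 cholangiocyte markers were added after their values were seen. Alternatives were other limits, assignments and gaps, a stricter and an own reproducible list, each replicate left out, and the replicate block. Tools were Python 3.11.15 with SciPy 1.17.1, pandas 2.3.3, matplotlib 3.10.9 and NumPy 2.4.6.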

Additional observations from a re-analysis of the deposited data

How the results depend on the processing

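The differences between TGFβ1 and control libraries in enriched peaks, in the enriched share of CAVIN1 clusters and in its highest log2 fold kept their sign under the 25 alternatives tried for these 3. Several of these alternatives say little. The replicate block leaves each mean difference unchanged by construction. A −log10 p limit of 5 and assignment by any overlap gave the main values again, as did the −log10 p limit applied to the highest fold. No p could pass 0.05 in this design. Leaving out 1 library gave 1.5 to 5.5 for the difference in enriched peaks (3.5 with all), 1.99 to 14.2 percentage points for the enriched share of CAVIN1 clusters (8.10) and 0.26 to 0.62 for its highest log2 fold (0.44). Subtracting library medians, an alternative added after seeing the data, lowered the last to 0.17 and turned the difference in mean log2 fold over the distal site to −0.06 (0.21 as deposited). Without TGFβ1 replicate 2 the highest fold of the proximal site was 2.77 for TGFβ1, against a control mean of 2.84, where all libraries gave 3.63 and 2.84. With the replicate number as a block the differences stay 3.5, 8.10 and 0.44, with exact sign-flip p of 0.5, the smallest 2 pairs allow. Same-numbered libraries deviated together with r = 0.073 across 4178 genes, which are not independent, so the numbers were not taken as pairs. With limits for the log2 fold of 2 and 4 the difference in enriched peaks was 6.0 and 3.0.

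Counting enriched clusters of one replicate that overlap one of the other gave 5 TGFβ1 peaks in CAVIN1 from either replicate, in place of 9, and 2 and 3 control peaks from replicates 1 and 2, in place of 4. The proximal site is lost by this count because replicate 1 of each condition was not enriched there. The number of sites stayed 2 in each list at merging gaps of 0 and 50 nt. With an overlap of at least 0.5 of the peak required, 77.8% of TGFβ1 peaks overlapped a control peak. Read depth is unknown, so no limit of detection can be given for the genes without enriched clusters.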

Other observations

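Many clusters of a library shared 1 exact log2 fold. This commonest value was 1.20 and 1.31 in TGFβ1 libraries, held by 19.6% and 15.4% of clusters, against 0.38 and 0.85 in control libraries, held by 28.8% and 25.1%. Of the caveolar genes, 4 of 13 CAVIN3 clusters, 3 of 14 CAV2 clusters and 10 of 59 CAV1 clusters stood at the commonest value of their library, against 2 of 102 CAVIN1 clusters. The highest fold of CAVIN3 was this value in TGFβ1 replicate 1 and in both control libraries. The highest fold of CAV2 was this value in control replicate 1.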
